A study of Homo sapiens with 13 samples.

Results

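Very broad accessible regions were examined in T98G, an established human glioblastoma cell line. They were selected on their measured width as the ATAC-seq peaks of 2500 bp or more in the deposited table, which left 531 of 129347 peaks, or 0.4105% of the peaks and 2.961% of the peak length. Their median width was 2850 bp, against 254 bp over all peaks, and the widest spanned 11559 bp. A peak was called a promoter peak where it overlapped a transcription start site (TSS) of GENCODE, distal where it lay more than 2000 bp from every TSS, and flanking otherwise. By this rule 400 of the broad peaks were promoter peaks, 27 were flanking and 104 were distal. The authors had called peaks on the merged replicates of each phase and merged the phases, so the width was set by reads of the same libraries that are compared here, and it enters no test.

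ATAC-seq uses the Tn5 transposase to place sequencing adapters in accessible DNA. Active promoters, and in particular those in CpG islands, which are stretches rich in G, C and the dinucleotide CpG, carry an open nucleosome-poor stretch that yields many reads. Tandem arrays are stretches in which a unit is copied head to tail, and a short read from such a unit can map equally well to several of its copies. During mitosis most transcription stops while many promoters stay accessible.

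The 3 G1 libraries came from T98G cells kept without serum for 72 h. The 3 M-phase libraries came from T98G cells kept without serum for 48 h, then released for 36 h into medium with serum and nocodazole, a drug that depolymerizes microtubules, and collected by shaking off mitotic cells. Serum, nocodazole and phase changed together and cannot be told apart, and neither can the platform, because each M-phase replicate has a HiSeq and a NextSeq run while the G1 libraries have HiSeq runs only. By a recovery of whole reads from the scaled values, 4333935 to 5365024 reads fell in peaks in G1 and 12470564 to 14202790 in M-phase. As a check of the cell line label, promoter peaks were sought at VIM, CD44, NES, S100A6 and ANXA1, chosen as markers of mesenchymal glioma. All but NES had a promoter peak, with a highest mean scaled count from 29.97 at ANXA1 to 616.5 at VIM. PTPRC, CD3E, ALB and KRT5 of blood, liver and epithelium had none.

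The sequences of the broad peaks were read from GRCh37, the assembly of hg19, and described by how often they recur in the genome. A peak was called multi-copy where at least 10% of its 32-base words occur more than once in the genome, a class set after the peaks had been seen. There were 139 multi-copy and 392 single-copy broad peaks. The multi-copy share was 26.2% in broad peaks, 15.95% in peaks from 1500 to under 2500 bp and 23.5% in all peaks. At least 20% of the words were repeated within the peak itself in 13.2% of broad peaks. The share was 3.10% in peaks from 1500 to under 2500 bp and 1.83% in all peaks, which are narrower. The coding exons of MUC17 and MUC4, which code for membrane mucins, show this arrangement. Each pair of lines gives 90 coding bases and the 90 bases that follow a repeat period later, with capitals where the pair differs and the strand of the gene.

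MUC17, chr7:100680542-100680631, plus strand: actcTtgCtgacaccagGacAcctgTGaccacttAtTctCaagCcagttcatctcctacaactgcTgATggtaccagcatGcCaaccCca
MUC17, chr7:100680719-100680808, plus strand: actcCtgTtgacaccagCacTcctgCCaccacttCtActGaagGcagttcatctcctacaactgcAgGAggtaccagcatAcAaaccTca
MUC4, chr3:195509828-195509917, minus strand: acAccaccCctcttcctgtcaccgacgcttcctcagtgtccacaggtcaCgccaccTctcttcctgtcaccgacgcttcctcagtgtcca
MUC4, chr3:195509780-195509869, minus strand: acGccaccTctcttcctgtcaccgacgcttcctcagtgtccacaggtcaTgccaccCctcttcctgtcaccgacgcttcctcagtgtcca

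The period was 177 bp in MUC17, where 74 of the 90 bases match, and 48 bp in MUC4, with 86 of 90. Over the whole peak, bases a period apart were identical at 82.1% of positions in MUC17 and 85.6% in MUC4. These stretches were chosen near the middle of each peak where the match was at least that of the whole peak.

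Of the 392 single-copy broad peaks 352 were promoters, 32 distal and 8 flanking, and 48 promoters were multi-copy. The 150 bases before the first protein-coding TSS of TRIM41, MAN2A1 and GYPC are shown because these were the promoter peaks with the largest rise, the smallest change in single-copy sequence and the largest single-copy fall in M-phase, and the last line is from a histone gene pair. Capitals mark CpG in the first 3 lines, and CCAAT (on either strand) and TATAAA in the H2BC5 line.

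TRIM41, chr5:180649349-180649498, plus strand: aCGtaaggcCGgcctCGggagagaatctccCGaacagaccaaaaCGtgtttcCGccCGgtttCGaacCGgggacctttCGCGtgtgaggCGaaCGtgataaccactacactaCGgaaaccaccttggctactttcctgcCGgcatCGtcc
MAN2A1, chr5:109025478-109025627, plus strand: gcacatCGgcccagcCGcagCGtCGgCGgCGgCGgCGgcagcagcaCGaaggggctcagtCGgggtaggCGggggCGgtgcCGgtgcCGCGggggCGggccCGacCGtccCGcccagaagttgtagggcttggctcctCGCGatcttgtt
GYPC, chr2:127413584-127413733, plus strand: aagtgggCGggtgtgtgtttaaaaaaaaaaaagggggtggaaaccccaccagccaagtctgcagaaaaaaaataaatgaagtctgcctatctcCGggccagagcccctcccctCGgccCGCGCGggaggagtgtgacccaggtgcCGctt
H2BC5, chr6:26158200-26158349, plus strand: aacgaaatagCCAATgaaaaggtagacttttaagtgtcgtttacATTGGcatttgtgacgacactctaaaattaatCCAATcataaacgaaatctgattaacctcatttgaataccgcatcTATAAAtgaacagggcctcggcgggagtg

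The stretch holds 16 CpG at TRIM41, 21 at MAN2A1 and 7 each at GYPC and H2BC5, with a GC content of 58.0%, 75.3%, 56.0% and 38.0%. The H2BC5 stretch holds 3 CCAAT matches and 1 TATAAA match, and it and the GYPC stretch overlap exons of non-coding transcripts.

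The 2 non-promoter peaks with the largest rises held matches to GGTTCGANNCC, the consensus of the B box, an internal promoter element of tRNA genes read by RNA polymerase III. This motif was searched after the values had been seen, on both strands of whole peaks, and tRNA genes are not in the annotation used here. The match stands in capitals in the lines below. The TRIM41 stretch above also holds a match, on the minus strand, which is not marked there.

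Peak on chromosome 6, chr6:26312822-26312897, minus strand: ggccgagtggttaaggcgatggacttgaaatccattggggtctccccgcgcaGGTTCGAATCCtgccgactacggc
Peak on chromosome 17, chr17:8124865-8124940, plus strand: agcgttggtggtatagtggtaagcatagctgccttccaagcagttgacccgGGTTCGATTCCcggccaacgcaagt

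Broad peaks differed in level more than in width. The mean scaled count per kb of peak, that is reads scaled by the authors to the smallest library and averaged over the 6 libraries, had a median of 158.7 in broad peaks against 45.6 in all peaks. In peaks from 1500 to under 2500 bp the median was 150.6, close to that of broad peaks. Across broad peaks the level ranged from 10.2 to 784.5 per kb. In single-copy broad peaks the median was 179.1 per kb, in multi-copy ones 49.5, and 67 of the 139 multi-copy peaks lay below the median of all peaks against 4 of the 392 single-copy ones. All 14 broad peaks of 6000 bp or more were multi-copy, so the label of a very accessible region does not hold for the widest peaks by this level.

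**Figure D1:**
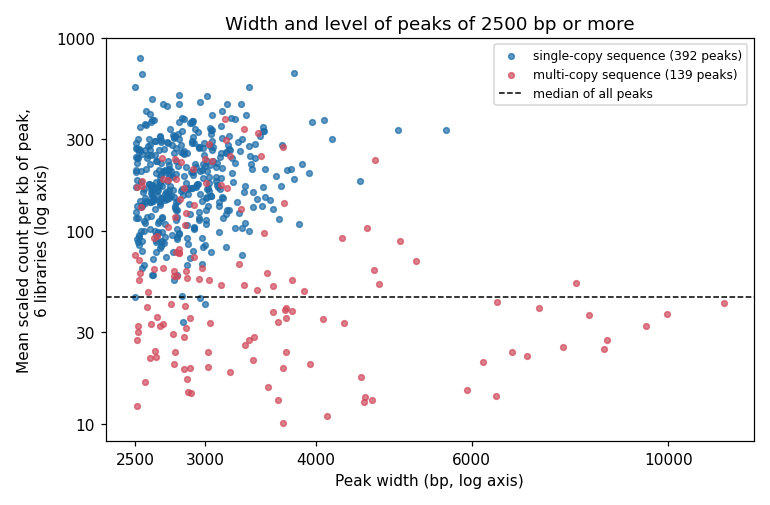
Width of each peak of 2500 bp or more (bp, log axis) against its mean scaled count per kb over the 6 libraries (log axis), with single-copy peaks in blue, multi-copy peaks in red and the median of all peaks dashed. The peaks of 6000 bp or more are all red and lie near or below the dashed line at 45.6, while most blue points lie above 100.

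The highest level per kb was at SP3, a zinc finger factor that binds GC boxes, with 784.5, followed by the shared promoter of CARS2, a mitochondrial tRNA synthetase, and ING1, a chromatin reader, with 654.7, and by TRIM41 with 648.2. The lowest were 10.2 in a peak near ZNF885P on chromosome Y, 10.96 near ENSG00000260622 on chromosome 2 and 12.4 in KCNG2, a potassium channel subunit gene, on chromosome 18.

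Base composition followed the same division. The median GC content was 63.0% in broad peaks, 62.6% in peaks from 1500 to under 2500 bp and 50.6% in all peaks. It was 65.5% in single-copy broad promoters. A CpG island overlapped 386 of 531 broad peaks, or 72.7%, against 76.9% of peaks from 1500 to under 2500 bp and 12.98% of all peaks. Among promoters the share was 90.8% in broad peaks, 93.1% in peaks from 1500 to under 2500 bp and 76.6% in all promoter peaks. Broad promoters held a median of 5 annotated TSSs, as did those from 1500 to under 2500 bp, against 3 in all promoter peaks. In the central 200 bp a GC box (GGGCGG, either strand) occurred in 45.5% of broad promoters, 56.2% of promoters from 1500 to under 2500 bp and 49.1% of all promoters. An ETS site (CCGGAAG) occurred in 2.25%, 6.14% and 7.63%, and the NRF1 consensus in 2.75%, 7.04% and 6.22%. AP-1 sites (TGANTCA) occurred in 4%, 2.19% and 4.71%, CCAAT in 12.8%, 15.2% and 17.5%, and TATAAA in 3.25%, 1.81% and 2.60%. The centre of a broad peak need not be near a TSS, so these shares describe the windows searched.

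The share of the reads in peaks that fell in the broad ones was 4.33%, 4.22% and 3.99% in G1 replicates 1, 2 and 3 and 6.07%, 6.26% and 6.17% in the M-phase replicates, so the phases did not overlap. The means were 4.18% ± 0.174 (SD, n = 3) and 6.17% ± 0.0918 (SD, n = 3). Broad promoters went from 3.59% ± 0.131 to 5.54% ± 0.0961, while distal broad peaks stood at 0.461% ± 0.0569 and 0.472% ± 0.00227 and multi-copy ones at 0.701% ± 0.0933 and 0.748% ± 0.00552 (SD, n = 3 each). In peaks from 1500 to under 2500 bp the share went from 24.98% ± 0.795 to 32.4% ± 0.437.

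For each peak the phases were compared by a limma fit to log2(scaled count + 8). Its p-values were adjusted by Benjamini and Hochberg's procedure across 73121 peaks kept by a minimum on low values, and all 531 broad peaks were kept. At an adjusted p under 0.05, 375 broad peaks were higher in M-phase, 16 were lower and 140 were not called, with a median log2 change, M-phase over G1, of 0.78. Over all peaks tested 14.3% were higher and 13.1% lower, with a median of 0.02, and among peaks from 1500 to under 2500 bp 60.3% were higher and 3.04% lower, with a median of 0.62. The libraries did not overlap with M-phase above in 389 broad peaks and below in 25, against 19.7% and 18.6% of all peaks tested. As G1 and M-phase libraries differ in depth and broad peaks were chosen on width, no test was made over them as a list.

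These counts hold for the deposited scaling. With equal totals in peaks for every library, which shifted the median of all peaks to -0.24, 311 broad peaks were higher and 70 lower, and the background was 8.67% higher and 24.7% lower. After a trended loess normalization, which removes any trend of the change with the level of a peak whatever its source, 131 were higher and 140 lower with a median of -0.03, against 10.8% and 13.4% of all peaks tested. Of the peaks higher with the deposited scaling, 130 were also higher after loess and 51 were lower. Across 5 fits (deposited scaling, equal totals, loess, the trimmed mean of M values (TMM) and edgeR on recovered reads), 128 broad peaks were higher in each and 16 were lower in each. Counts that join several fits were made for broad peaks only, so no share over all peaks stands beside them. The change was larger in denser peaks, with a Spearman correlation across the 531 broad peaks of 0.64 between log2 change and count per kb, which was 0.20 after loess. Within the 352 single-copy promoters the correlation was 0.39, and it was -0.04 after loess. These are correlations over peaks that share libraries and are given as a description.

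**Figure D2:**
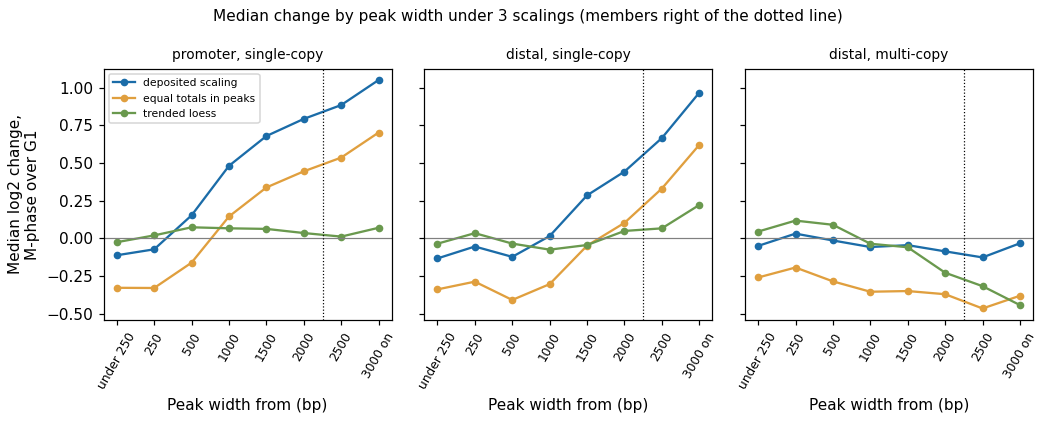
Median log2 change, M-phase over G1, of the peaks tested in bins of peak width for single-copy promoters, single-copy distal peaks and multi-copy distal peaks, under the deposited scaling (blue), equal totals (orange) and trended loess (green). Under the deposited scaling the single-copy promoters climb from -0.11 under 250 bp to 1.05 from 3000 bp on, the loess values stay within -0.03 and 0.07, and the multi-copy distal peaks do not climb.

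Among promoters 339 of 400 broad peaks (84.8%) were higher and 7 (1.75%) lower, with a median of 0.91. All promoter peaks tested gave 43.2% higher and 5.94% lower with a median of 0.39. Promoters from 1500 to under 2500 bp gave 67.8% higher and 1.78% lower with a median of 0.70. After loess 115 broad promoters were higher and 93 lower. These were 28.8% higher and 23.3% lower, against 21.3% and 17.1% of all promoters and 26.6% and 22.2% of promoters from 1500 to under 2500 bp. The 352 single-copy promoters gave 313 higher and 1 lower, and the 48 multi-copy ones 26 higher and 6 lower. In single-copy promoters the median change was 0.79 from 2000 to under 2500 bp, 0.89 from 2500 to under 3000 bp and 1.05 from 3000 bp on. With the deposited scaling the single-copy broad promoters thus continued a climb with width that starts below the threshold. After loess these medians were 0.04, 0.01 and 0.07. In multi-copy promoters the medians of the same bins were 0.66, 0.61 and 0.15 with the deposited scaling.

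**Figure D3:**
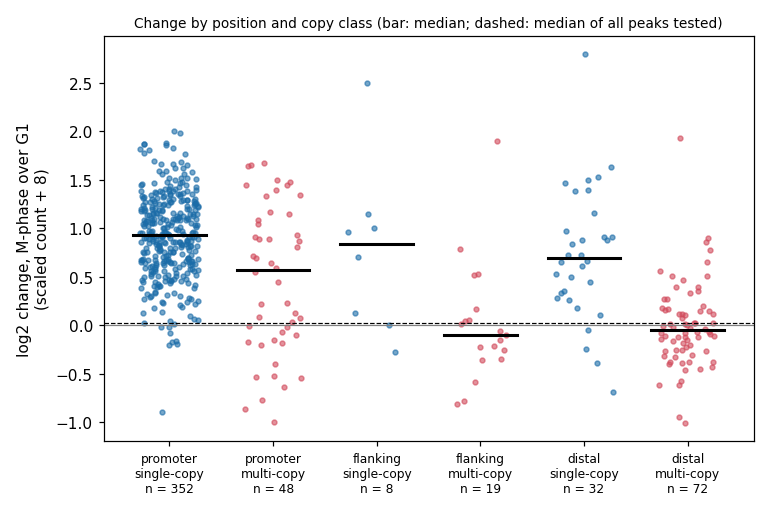
log2 change, M-phase over G1, of each of the 531 broad peaks by position and copy class, with the class median as a bar and the median of all peaks tested dashed. Single-copy promoters centre on 0.93 with 1 point near -0.90 (GYPC), and multi-copy distal peaks centre on -0.05.

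The largest promoter rise was at TRIM41, a ubiquitin ligase gene on chromosome 5 whose upstream sequence is shown above. Its scaled counts were 622.4, 569.5 and 781 in G1 and 2296.6, 2721.9 and 2911.2 in M-phase, a log2 change of 2.00 (SE 0.14, adjusted p = 9.82e-21 from limma). All M-phase values lay far above all G1 values, and the change was 0.75 after loess (adjusted p = 1.74e-14). The peak at LINC02939 and MIRLET7BHG, host of let-7 microRNAs, followed with 490.1, 340.6 and 462 in G1 and 1579.8, 1751.6 and 1800.1 in M-phase, a log2 change of 1.98. SLC1A5, a glutamine transporter, held 248.5, 292.2 and 222 against 870.5, 945.6 and 1047.1, a log2 change of 1.88. WNK1, a kinase that controls ion transport, rose by 1.87, from 339.0, 264.1 and 357 to 1124.6, 1159.5 and 1267.4. The peak over TNFRSF12A (the TWEAK receptor), HCFC1R1 and THOC6 rose by 1.87 and IRF2BP2, a transcriptional corepressor, by 1.86. All 6 of these promoters were also higher after loess, by 0.64 to 1.02.

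The widest single-copy peaks, picked after their values were seen, were all promoters. PLEC, coding for the cytolinker plectin, had 5609 bp and 1077.7, 1148.4 and 1148 in G1 against 2343.6, 2772.2 and 2693.7 in M-phase, a log2 change of 1.202 that was -0.15 after loess. CDK6, a kinase of the G1 phase, had 4951 bp and 1145.3, 1127.4 and 1210 against 2092.3, 2163.2 and 2123.9, a log2 change of 0.87 (adjusted p = 1.57e-07) that turned to -0.45 after loess (adjusted p = 3.58e-07). TRIM8 rose by 1.35 and PTMA, coding for prothymosin alpha, by 1.31, and after loess these were 0.33 and 0.12. The direction at CDK6 thus rests on how the libraries are scaled.

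Among the 7 promoter peaks that were lower, GYPC was the single-copy one. This gene codes for glycophorin C, a membrane protein linked to the cytoskeleton. Its scaled counts were 685.0, 559.4 and 911 in G1 and 410.7, 363.0 and 352.2 in M-phase, a log2 change of -0.90 (SE 0.16, adjusted p = 7.60e-06 from limma), and -1.78 after loess. LSP1P5 with LSP1P4, pseudogenes on chromosome 2, held 600.5, 700.8 and 708 against 413.2, 351.5 and 330.1, a log2 change of -0.86, in a peak of which 64.0% of the words are multi-copy. LINC01198 fell by 0.77 and the ENSG00000203335 peak in DPP6 by 0.55 on the log2 scale, each no longer called when a library was left out (adjusted p = 0.0746 without M-phase replicate 2 for LINC01198, and 0.0978 without G1 replicate 2 and 0.112 without M-phase replicate 3 for the DPP6 peak). Reads with up to 3 locations were kept by the authors and placed at 1 of them, so counts in multi-copy peaks may belong to another copy.

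The promoter peaks with the smallest change were at VPS53 (-0.01), a vesicle tethering gene whose peak is multi-copy, MAN2A1 (0.01), a Golgi mannosidase, and DDR2 (-0.02), a collagen receptor. MAN2A1 held 645.2, 609.4 and 905 in G1 and 683.4, 728.5 and 733.8 in M-phase, so its M-phase values lay inside the range of G1, and after loess it was lower by 0.996 on the log2 scale (adjusted p = 9.05e-15). DDR2 held 90.5, 130.5 and 176 against 130.2, 145.9 and 106.3, where the phases overlap too.

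**Figure D4:**
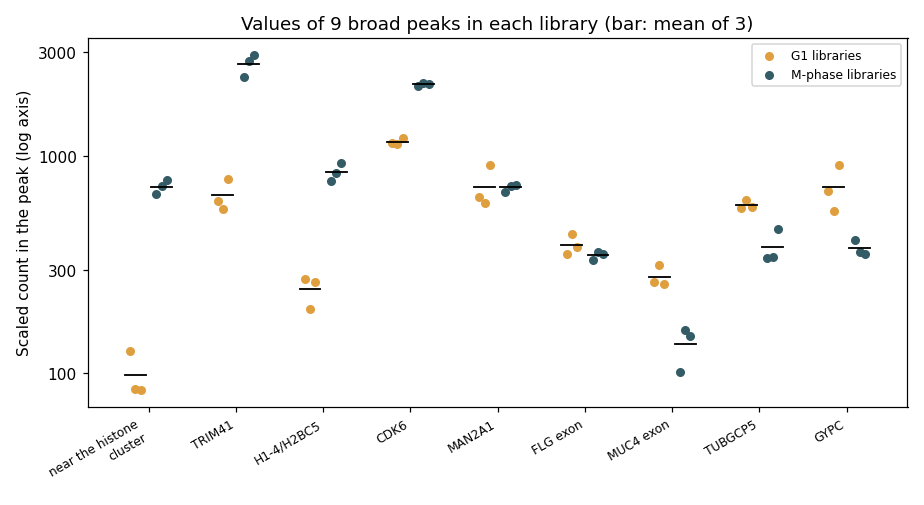
Scaled count (log axis) of 9 broad peaks in each of the 3 G1 libraries (yellow) and 3 M-phase libraries (blue-green), with the mean as a bar. The phases lie apart with M-phase above for the peak near the histone cluster, TRIM41, H1-4/H2BC5 and CDK6, overlap for MAN2A1 and the FLG exon, and lie apart with M-phase below for the MUC4 exon, TUBGCP5 and GYPC.

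The replication-dependent histone genes, which package new DNA and lie in clusters on chromosomes 6 and 1, had 11 broad peaks at their TSSs. All 11 were higher, with a median of 1.45, and remained higher after loess. Among all broad promoters 84.8% were higher with the deposited scaling and 28.8% after loess. Of the 40 peaks of any width tested at the histone genes 38 were higher and 0 lower. The largest rise was at H1-4 and H2BC5, with 271.4, 197.7 and 263 in G1 and 768.3, 834.0 and 925.8 in M-phase, a log2 change of 1.76 (SE 0.16, adjusted p = 5.31e-15 from limma), and 0.94 after loess. H3C2 with H2AC4 rose by 1.57 from a mean of 229.5 ± 66.0 to 679.7 ± 51.9 (SD, n = 3 each), and H3C14 by 1.501 from 581.9 ± 110.2 to 1642 ± 85.2. The smallest of the 11 was 1.08 at H2BC18 and H3C13. Paralogous histone genes are alike in their coding sequence, and reads with several locations can be placed at any of them.

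Developmental factors gave 18 higher and 0 lower of 19 broad peaks, with a median of 1.02. Among all broad promoters 84.8% were higher, with a median of 0.91. Of the 149 peaks of any width tested at developmental factor genes 60 were higher and 12 lower, with a median of 0.31. RUNX2, a factor of bone formation, held 190.9, 167.2 and 165 in G1 and 500.9, 515.9 and 527.4 in M-phase, a log2 change of 1.52 that was 0.86 after loess. SOX12 held 1120.4, 979.7 and 1219 against 2432.2, 2817.9 and 2666.2, a log2 change of 1.25 that was -0.10 after loess. SOX6 was the member not called, at 0.06 (adjusted p = 0.852). After loess 6 of the 19 were higher and 2 lower, beside 28.8% and 23.3% of all broad promoters.

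Chromatin and splicing regulators gave 12 higher and 0 lower of 13, with a median of 1.14. Of the 161 peaks of any width tested at these genes 113 were higher and 2 lower, with a median of 0.78, beside the 84.8% higher among all broad promoters. KDM6B, which removes methyl groups from lysine 27 of histone H3, had a pair of broad peaks. Its downstream peak held 613.4, 595.3 and 519 in G1 and 1603.3, 2003.3 and 1909.3 in M-phase, a log2 change of 1.66, and the other rose by 1.47. HNRNPUL1 rose by 1.56 and ARID1B, a subunit of the BAF remodeller, by 1.48, while ARID3A was not called at -0.17 (adjusted p = 0.525). After loess 6 were higher and 2 lower, beside 28.8% and 23.3% of all broad promoters.

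Immediate-early and AP-1 genes, which respond quickly to growth factors, gave 9 higher and 0 lower of 11, with a median of 1.15. Of the 38 peaks of any width tested at these genes 31 were higher and 0 lower, with a median of 1.04, and of all broad promoters 84.8% were higher. IER2 held 418.5, 353.9 and 417 in G1 and 1223.1, 1380.3 and 1291.5 in M-phase, a log2 change of 1.69, and FOSB, an AP-1 subunit, 462.3, 382.8 and 452 against 1167.5, 1393.1 and 1489.3, a change of 1.62. JUN, its dimerization partner, held 952.4, 718.0 and 913 against 1425.4, 1571.1 and 1692.3, a change of 0.86 that was -0.34 after loess. DUSP6, a phosphatase of the ERK kinases, was not called, with 334.0, 294.5 and 429 against 329.6, 317.7 and 436.0 (0.04), nor was the nuclear receptor NR4A2 (-0.19, adjusted p = 0.426). After loess 4 were higher and 3 lower, NR4A2 among the latter at -1.02, beside 28.8% and 23.3% of all broad promoters.

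KLF and SP factors gave 4 of 5 higher (KLF10 1.29, SP3 1.27, KLF13 0.86 and KLF4 0.45) with KLF18, a multi-copy coding exon, not called, and after loess 0 were higher and 1 was lower. KLF10 and KLF4 count among the immediate-early genes too. Of the 22 peaks of any width tested at KLF and SP genes 12 were higher and 1 lower. Actin cytoskeleton genes gave 3 of 4 higher (ACTG1 1.201, FLNA 1.08 and TAGLN2 0.51), with CNN2 at 0.30 not called. After loess 0 of them were higher and 1 was lower. Of the 30 peaks of any width tested at actin cytoskeleton genes 21 were higher and 1 lower. Cyclins, CDKs and inhibitors gave 3 of 4 higher (CDK17 1.32, CDK6 0.87 and CDK13 0.61), with CDK5 at 0.18 not called, and after loess 1 was higher and 3 were lower. Of the 50 peaks of any width tested at cyclin, CDK and inhibitor genes 34 were higher and 2 lower. The share of higher peaks among all broad promoters was 84.8%, which is above the share in each of these 3 lists. After loess 28.8% of all broad promoters were higher and 23.3% lower. RNU4-2 with RNU4-1, genes of the U4 spliceosomal RNA, rose by 1.40 and RNU2-2P by 0.93. Ribosomal protein genes had 0 broad peaks, although 86 narrower peaks were tested at them. These lists were drawn up with earlier results of these data known.

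**Figure D5:**
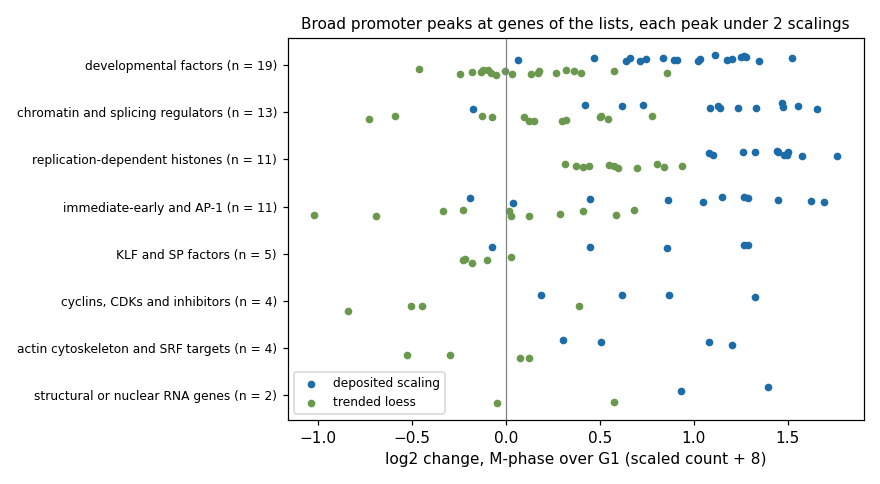
log2 change, M-phase over G1, of each broad peak at genes of a list, under the deposited scaling (blue) and after trended loess (green), with the number of broad peaks per list. The 11 histone peaks lie above 0 under both scalings, and the green points of the other lists with over 2 peaks lie on both sides of 0.

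Distal broad peaks were mixed, with 28 of 104 (26.9%) higher and 6 (5.77%) lower and a median of 0.11. All distal peaks tested gave 6.17% higher and 15.5% lower with a median of -0.06. Distal peaks from 1500 to under 2500 bp gave 29.96% higher and 8.2% lower with a median of 0.14. Of the distal broad peaks, the 32 single-copy ones gave 21 higher and 1 lower (median 0.69). The 72 multi-copy ones gave 7 higher and 5 lower (median -0.05). The 27 flanking broad peaks gave 8 (29.6%) higher and 3 (11.1%) lower (median 0.01). All flanking peaks tested gave 8.29% higher and 11.99% lower (median -0.02). Flanking peaks from 1500 to under 2500 bp gave 38.55% higher and 6.1% lower (median 0.19). With equal totals 20 distal broad peaks (19.2%) were higher and 39 (37.5%) lower, where all distal peaks gave 2.88% and 27.4%. After loess 12 (11.5%) were higher and 37 (35.6%) lower, where all distal peaks gave 7.73% and 12.8%. Those from 1500 to under 2500 bp gave 21.6% and 26.75% with equal totals and 19.7% and 19.5% after loess. Without M-phase replicate 2, 3 distal broad peaks were lower, and without G1 replicate 3 the median was 0.01.

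The largest rise among all broad peaks was in a distal peak of 2609 bp at chr6:26310976-26313584, inside the long non-coding gene ENSG00000291336 near the histone cluster. Its scaled counts were 126.3, 85.2 and 84 in G1 and 663.7, 722.7 and 776.6 in M-phase, a log2 change of 2.80 (SE 0.18, adjusted p = 3.05e-23 from limma), and 2.18 after loess. The flanking peak at LINC00324 on chromosome 17 held 316.1, 293.8 and 349 against 1712.9, 1890.4 and 1904.5, a log2 change of 2.49 that was 1.46 after loess. These are the peaks whose B box matches are shown above. A peak near the pseudogene RN7SL636P on chromosome 20 rose by 1.93, a flanking peak near HJV, an iron regulator, by 1.90, and a peak in the kinase gene HIPK2 by 1.63, from 225.7, 232.8 and 287 to 735.7, 776.7 and 837.7. After loess these 3 were 1.22, 1.01 and 0.81.

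B box matches occurred in 16 broad peaks, or 3.01%, against 2.19% of peaks from 1500 to under 2500 bp and 0.290% of all peaks, which are narrower. Of the 16, 14 were higher and 0 lower with a median of 1.49, and after loess 9 were higher and 2 lower. They include the peak near HJV with 4 matches, the promoter of SHF with 3, and TRIM41 with 2. ANG, coding for angiogenin, with RNASE4 has 1 match and held 221.7, 203.1 and 336 in G1 and 823.1, 925.0 and 907.5 in M-phase, a log2 change of 1.80 that was 0.96 after loess. Among all broad peaks, with or without a match, 70.6% were higher and 3.01% lower, and after loess 24.7% and 26.4%. Among broad promoters 84.8% were higher. Over peaks of any width with at least 1 match, 213 of the 354 tested were higher and 9 lower. After loess 161 of these were higher and 36 lower. Among all peaks tested, with or without a match, 14.3% were higher and 13.1% lower, and after loess 10.8% and 13.4%. From 1500 to under 2500 bp, 85 of the 107 with a match were higher and 2 lower, beside 60.3% and 3.04% of all peaks of that width. Over peaks of any width with at least 2 matches, 34 of the 40 tested were higher and 0 lower. After loess 31 of these were higher and 3 lower. Among the broad peaks with a match that were not called was a multi-copy peak near CDRT15P9 on chromosome 21 (-0.41, adjusted p = 0.0946), which was lower after loess.

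Outside promoters the largest fall was in GALNT9. This peak on chromosome 12, of which 79.9% of the words are multi-copy, held 76.6, 92.2 and 69 in G1 and 40.4, 28 and 38 in M-phase, a log2 change of -1.01 (adjusted p = 5.62e-04 from limma). A peak in ENSG00000286168 on chromosome 3 fell by 0.95, a peak in FAM230A on chromosome 22 by 0.81 and a peak near ENSG00000289033 on chromosome 2 by 0.79. The fifth, in the glutamate transporter gene SLC1A7, is single-copy and held 212.8, 200.8 and 161 against 137.2, 140.5 and 78.4, a log2 change of -0.69 (adjusted p = 0.0061) that was -0.43 and no longer called without M-phase replicate 3 (adjusted p = 0.178).

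The 10 widest peaks were multi-copy, and 3 of them were lower in M-phase with the other 7 not called. The widest lay at TUBGCP5, a subunit of the gamma-tubulin ring, at chr15:22822599-22834157, with 59.8% multi-copy words, and held 574.6, 626.6 and 581 in G1 and 339.9, 342.4 and 460.5 in M-phase, a log2 change of -0.64 (SE 0.16, adjusted p = 0.00121 from limma). MUC4 held 263.5, 313.3 and 257 against 101.3, 159.0 and 149.2, a log2 change of -1.003 (adjusted p = 1.61e-05), in a peak of which 99.5% is coding sequence and which counts as a promoter because a MUC4 transcript starts in it. An array within PTPRN2, a gene of the tyrosine phosphatase family, with a period of 46 bp held 303.2, 411.7 and 380 against 231.5, 204.8 and 266.1, a log2 change of -0.62 (adjusted p = 0.00431), which without M-phase replicate 2 was -0.53 and no longer called (adjusted p = 0.0716).

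The peak at FLG (filaggrin, a protein of the skin barrier), labelled by its antisense gene FLG-AS1 whose TSS it holds, lies wholly in coding sequence and held 351.9, 439.1 and 380 in G1 and 330.4, 359.3 and 355.1 in M-phase, a log2 change of -0.16 (adjusted p = 0.541). HRNR (hornerin, a relative of filaggrin) held 189.9, 198.4 and 178 against 215.9, 197.8 and 160.2, a change of 0.01. MUC17 stood at -0.26, MUC19 at 0.15, the locus of MIR1299 at -0.02, a peak near NXPE4 at -0.11 and one in ENSG00000289828 at -0.07, none of them called. With equal totals FLG (-0.50), MUC17 (-0.61), the MIR1299 locus (-0.37) and the NXPE4 peak (-0.45) were called lower, and after loess all of the 10 widest were called lower except the ENSG00000289828 peak (-0.44, adjusted p = 0.0555). Of all broad peaks, 8 multi-copy ones lay for at least 50% of their length in coding sequence, namely FLG, MUC17, MUC19, MUC4, HRNR, MUC12, KLF18 and FLG2, and MUC4 was the one called. Whether reads of other copies enter these counts was not tested.

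Assembly gaps and mitochondrial copies were counted apart. Of the broad peaks 33, or 6.21%, lay within 2 Mb of a gap of at least 1 Mb, against 3.21% of all peaks, and 27 of them were multi-copy. They gave 5 higher (NEK8 with TLCD1, NOL4L, HNRNPF, ASMTL and a peak with the histone pseudogene H2BP1) and 1 lower (LSP1P5). The ASMTL peak lies in a stretch of chromosome Y whose bases are masked in the reference, so its distance to a gap is 0. With no words to read, it counts by default among the 352 single-copy promoters, and its copy class is not known. No broad peak matched the mitochondrial genome, against 10 of all peaks. Within 100 kb of another broad peak lay 105 of the 531, of which 39 were multi-copy.

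At the width threshold the narrowest broad peaks were a multi-copy peak near ENSG00000289299 on chromosome 10 (0.78), a peak in SIK2 (0.72) and the promoter of INSIG1, a regulator of sterol synthesis (1.08). After loess they were 0.33, 0.50 and -0.17. Just outside, at 2498, 2498 and 2497 bp, lay the MIR3676 locus on chromosome 17, with 309.7 ± 47.2 in G1 and 2425 ± 101.3 in M-phase (SD, n = 3 each) and a log2 change of 2.95, ROCK2, a kinase of the actin cytoskeleton, with 1.02, and LGALS1, coding for galectin-1, with 1.41. The threshold therefore left out a peak whose change was larger than that of every broad peak.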

How the data were processed

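ATAC-seq values of 3 G1 and 3 M-phase libraries of T98G cells were used. By the paper's methods, the authors removed adapters with cutadapt, trimmed 1 base from the 3′ end, mapped reads to hg19 with Rbowtie (up to 3 locations, 1 kept), discarded mitochondrial reads (samtools), merged the replicates of a phase and ran macs2 in its broad mode. Tool versions and any Tn5 shift are not given in the sources used here. The deposited signal is the count of reads per peak that the authors scaled to the smallest library, rounded to 0.1, in which 99.936 to 100% of values per library were whole multiples of a read (within 0.051). How an M-phase column joins its 2 runs is not stated. The authors' log2 columns were not used, and 0 columns of per-sample values were left unused.

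The members and lists were chosen with earlier results of these data known. The main fit used limma 3.58.1 (R 4.3.3), with an intensity trend in its variance prior, on log2(scaled count + 8) of peaks with a value equivalent to at least 10 in at least 3 libraries and a total of at least 15, with a threshold of 0.05 on the adjusted p. Nothing says that replicates came from separate cultures, so p-values measure the spread between these libraries. edgeR 4.0.16 on recovered reads was an alternative. The fits were tested on simulated data. TSSs came from GENCODE 44 lifted to GRCh37. CpG islands were computed from sequence with a score of 17 per CpG, at least 200 bp, at least 50% GC and an observed over expected ratio above 0.6. Genes were named as those with a TSS in the peak, otherwise overlapping it, otherwise nearest. Named peaks were the 10 widest, the 6 largest promoter rises and falls and 5 others each way among called peaks without overlap, the 3 nearest the threshold on either side, the 3 smallest promoter changes, the 3 highest and lowest levels per kb, and at most 4 per gene list, with more values for peaks shown in figures or beside B box matches. Numbered replicates did not deviate together (r = 0.00594, -0.0101 and 0.0284 for numbers 1, 2 and 3). Python 3.11.15, numpy 2.4.6, pandas 2.3.3, numba 0.67.0, samtools 1.23.1 and matplotlib 3.10.9 were used. Some peaks that the rules name are not reported here.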

Additional observations from a re-analysis of the deposited data

How the results depend on the processing

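Among the 531 broad peaks, the direction of the medians and the calls depended on the scaling. After trended loess 131 broad peaks were higher and 140 lower (median -0.0257), with 115 and 93 among promoters (median 0.0068) and 12 and 37 among distal peaks (median -0.2829), and the cause was not tested. With equal totals in peaks 70 were lower, 21 of them promoters and 39 distal, and the medians were 0.4446, 0.5568 and -0.2303. With TMM, and with edgeR on recovered reads with TMM, 10 distal peaks were lower. From a width of 2000 bp, 1135 peaks were higher and 44 lower (promoters 1022 and 19, distal 89 and 18), holding 11.22% of reads in G1 and 15.96% in M-phase. From 3000 bp, 122 were higher and 8 lower (114 promoters higher, distal 7 and 1, distal median 0.0148), holding 1.688% and 2.554%. With TSSs of protein-coding transcripts only, 2 promoters were lower and 54 distal peaks higher and 14 lower. Without multi-copy peaks, an alternative chosen after seeing the data, 2 were lower, 1 promoter and 1 distal, and the distal median was 0.6949. Leaving out a library in turn gave 3 (without M-phase replicate 2) to 9 distal peaks lower and a distal median of 0.0088 to 0.1373, with the lowest median without G1 replicate 3, and 329 to 390 broad peaks higher. A pseudocount of 1, no filter, a minimum of 10 in every library, distal peaks outside CpG islands and leaving out peaks near gaps moved none of these counts by over 1.5 times. The replicate numbers did not pair the libraries, and with the replicate block 374 were higher and 16 lower.

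Peaks with changes near 0, and with loess SP3, INSIG1 and the peak of CARS2 and ING1, turned in direction. MUC19 was -0.4066 after loess and -0.1953 with equal totals, HRNR -0.0416 with TMM, -0.461 after loess, -0.3307 with equal totals and -0.0264 in edgeR with TMM, and KCNG2 -0.1235 with equal totals. MAN2A1 was -0.0402 with TMM, -0.9963 after loess, -0.3381 with equal totals, -0.0385 in edgeR with TMM and -0.0084 in edgeR with the authors' scaling. SP3 was -0.1002, INSIG1 -0.1652 and the peak of CARS2 and ING1 -0.0960 after loess. Leaving out a library gave -0.1028 to 0.03 at the MIR1299 locus, -0.2476 to 0.2032 at DDR2, -0.0953 to 0.1869 at MAN2A1, -0.0759 to 0.0489 at VPS53, -0.2379 to 0.1536 in ENSG00000289828 and -0.0795 to 0.1269 in HRNR. For the peaks named by rule, leaving out the narrowest broad peaks (INSIG1 among them), 525 recomputed values kept direction and side of the threshold. Of the rest 30 turned in direction, whatever their call. Among those that kept direction, 10 were newly called and 5 were no longer called. Some that turned also changed call. After loess MAN2A1 was newly called lower (adjusted p = 9.05e-15 from limma) and SP3 was no longer called (adjusted p = 0.228 from limma). Arrays of copies limit what the counts of multi-copy peaks can show, and G1 libraries, with fewer reads, set the counting error.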
